A study of Homo sapiens with 18 samples.

Results

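The question was how the transcriptional answer of human embryonic stem cells (hESCs) to low oxygen at 7 d differed from that at 24 h. In H9, HS360 and HS401 hESCs, the hypoxia effect (4% O2 minus 21% O2, log2 intensity) at 24 h was subtracted from the effect at 7 d, and this difference between the effects was tested over the 12 arrays of these time points, of 18 arrays in all. The 4 groups were hypoxia at 7 d, normoxia at 7 d, hypoxia at 24 h and normoxia at 24 h. Each group held 1 array of each line, so its 3 replicates were 3 different lines. The labels name no genetic change in any line, and all had been maintained on human foreskin fibroblasts before they were plated for the experiment on Matrigel in mTeSR1 medium. Cultures for 7 d entered hypoxia 1 day after plating and those for 24 h after 2 days in normoxia, so the 7 d and 24 h cultures also differed in their age, and exposure and age cannot be told apart in a level. Normoxic cultures of the same time point stand on the other side of every hypoxia effect.

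Oxygen is sensed through hydroxylases that mark the HIFα proteins for degradation when oxygen is plentiful. In low oxygen the HIF complex binds short DNA elements, the hypoxia response elements, and switches on genes for glucose uptake, glycolysis, mitophagy and vessel growth. Some of its targets, such as the hydroxylase EGLN3, feed back on HIF itself, and a response to low oxygen can therefore change with time. Human ESCs depend heavily on glycolysis and are often kept at low oxygen to limit spontaneous differentiation.

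The table held 23536 gene-level features. The median intensity of the 12 arrays lay between 131.6 and 160.9. On 3 of them, called the dim arrays here, the lower quartile of log2 intensity was 5.64 to 5.70, while on the remaining 9 it was 5.89 to 6.17. The dim arrays were H9 hypoxia, HS401 hypoxia and HS401 normoxia, all from 24 h. Without them hypoxia at 24 h is represented by HS360 alone, so every value given without the dim arrays rests on 1 array in that group and takes its spread from the other groups. The pluripotency regulators SOX2, LIN28A, DNMT3B and L1TD1 lay above 96.3% or more of all features in mean level, while POU5F1 had a mean of 7.28, near the median of all features (7.21). The summed intensity of 30 fibroblast markers was 20943 to 33999.7 in hypoxia and 20865 to 22416 in normoxia at 7 d, and 44337 to 47572 in hypoxia and 43755 to 52616 in normoxia at 24 h. At 7 d it was higher in hypoxia than in normoxia in H9 (33693 against 21470) and HS401 (33999.7 against 20865), but not in HS360 (20943 against 22416). These markers therefore moved with the comparison, and their part in the results below was not tested except where stated. Precision is limited by the small number of arrays. The p-values measure the spread that remains among the 12 arrays after the means of groups and lines are removed.

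**Figure D1:**
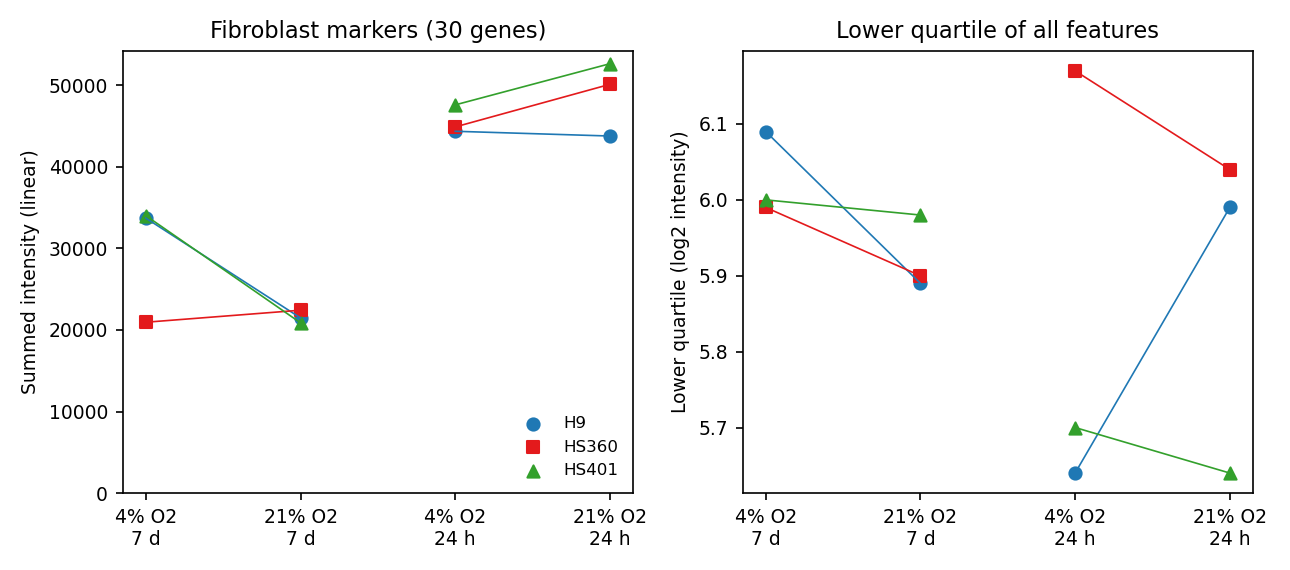
Summed linear intensity of 30 fibroblast markers (left) and lower quartile of log2 intensity over all features (right) on the 12 arrays; groups run from hypoxia at 7 d to normoxia at 24 h, symbols mark the hESC lines, and lines join arrays of 1 line and time point. The marker sum was lower on all 6 arrays at 7 d than on all 6 at 24 h, and the 3 dim arrays were all from 24 h.

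By limma no feature passed an adjusted p under 0.05 for the difference between the effects (0%, smallest adjusted p = 0.92), and 641 (2.72%) had an unadjusted p under 0.05. The thresholds that the study applied to its hypoxia effects (unadjusted p under 0.01 and fold over 1.5, which is 0.585 on the log2 scale) were therefore used to select features for description. They were passed by 90 features (0.382%), of which 47 (0.2%) had a higher effect at 7 d and 43 (0.183%) a lower one. The sign was the same in all 3 lines in these 90, which the selection by fold and spread nearly fixes, and in 23.8% of all features. The mean level of 64 of them (34 higher, 30 lower) was below the median of all features. The 3 lines differed from each other widely. Across the 23536 features, which are not independent, the difference between the effects in 1 line correlated with that in another at -0.0537 to 0.0521, and its median over all features was 0.31 for H9, 0 for HS360 and -0.05 for HS401.

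At the same thresholds 179 features (0.761%) differed between hypoxia and normoxia at 7 d, 107 (0.455%) higher and 72 (0.306%) lower. At 24 h they were 96 (0.408%), 85 (0.361%) higher and 11 (0.0467%) lower. No effect passed an adjusted p under 0.05 by limma at either time point, and 1380 features at 7 d (5.86%; 2.92% higher and 2.94% lower) and 534 at 24 h (2.27%; 1.64% higher and 0.633% lower) had an unadjusted p under 0.05. Of the 85 features higher at 24 h, 22 were also past the thresholds at 7 d in the same direction. Another 1, the small nucleolar RNA SNORD116-11, was past them in the opposite direction, with an effect of -0.83 at 7 d and 0.77 at 24 h. The median effect of these 85 was 0.45 at 7 d and 0.77 at 24 h, and that of the 107 features higher at 7 d was 0.81 at 7 d and 0.24 at 24 h. A feature chosen at one time tends to measure less at the other, so these medians describe the selection as well as the response. None of the 72 features lower at 7 d was past the thresholds in that direction at 24 h, and none of the 11 lower at 24 h was so at 7 d.

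Responses were sorted into classes from the same values, so the class sizes carry no test. A response was called lasting where a feature passed the thresholds at both times with the same sign (22 features, 0.0935%), and fading where it passed at 24 h and the difference between the effects ran against it at an unadjusted p under 0.05 (19, 0.0807%). It was called appearing where it passed at 7 d but not at 24 h and the difference ran with it at an unadjusted p under 0.05 (100, 0.425%). Another 111 (0.472%) passed at 1 time point and were not settled. SNORD116-11, with its opposite signs, stands among the fading features by this rule. All 22 lasting features were higher in hypoxia, and 20 of them were protein-coding genes. Of the 19 fading features 8 were protein-coding genes, and of the 100 appearing ones 72 were (33 higher and 39 lower in hypoxia at 7 d), as were 73.5% of all features.

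**Figure D2:**
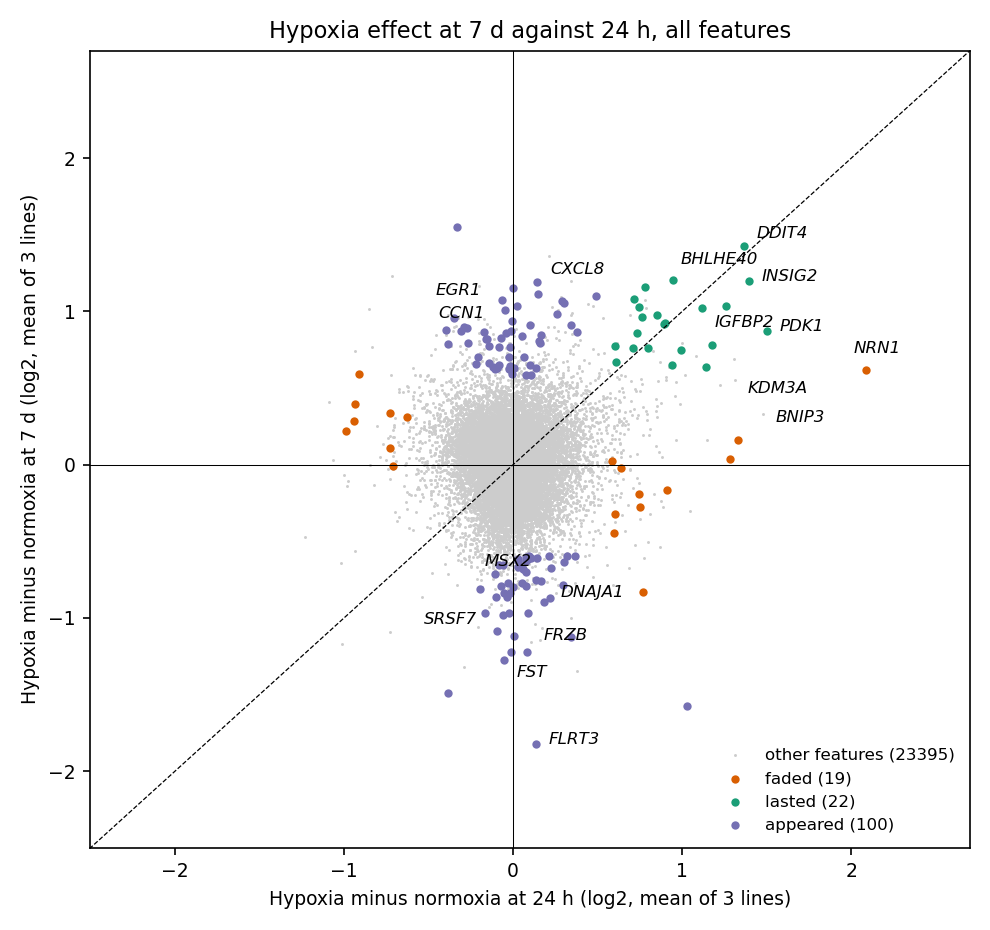
Hypoxia minus normoxia at 7 d (y axis) against 24 h (x axis) on the log2 scale, as means of 3 lines, for all 23536 features; colours mark the 22 lasting, 19 fading and 100 appearing features, and the dashed line marks equal effects. Lasting genes such as DDIT4 and INSIG2 lie along the dashed line, NRN1 lies far to its right, and FLRT3 lies at -1.82 at 7 d and 0.14 at 24 h.

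The lasting response held 5 genes of glucose uptake and glycolysis (SLC2A1, HK2, PFKFB3, PFKFB4 and PDK1) and 6 HIF targets outside glycolysis (DDIT4, INSIG2, BHLHE40, PPFIA4, PLOD2 and NDRG1). All values are log2 intensities, given in the order H9, HS360 and HS401. DDIT4 measured 10.17, 9.65 and 10.40 in hypoxia at 7 d, against 8.98, 8.30 and 8.66 in normoxia at 7 d, and 10.04, 8.58 and 9.86 in hypoxia at 24 h, against 8.50, 7.87 and 8.01 in normoxia at 24 h. This inhibitor of mTOR signalling was higher in hypoxia in each line at both times, with an effect of 1.43 at 7 d and 1.37 at 24 h and a difference between the effects of 0.06 (standard error 0.31, unadjusted p = 0.849). Without the 3 dim arrays the difference of DDIT4 was 0.73. In a bulk sample, fewer cells that express a gene and less RNA per cell cannot be told apart.

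SLC2A1 measured 12.71, 12.30 and 12.40 in hypoxia at 7 d, against 11.71, 11.51 and 11.27 in normoxia at 7 d, and 12.67, 12.18 and 12.32 in hypoxia at 24 h, against 11.78, 11.56 and 11.28 in normoxia at 24 h. In this glucose transporter the hypoxic and normoxic arrays did not overlap at either time, and the 3 lines gave nearly the same difference between the effects (0.11, 0.17 and 0.09), with a mean of 0.12 (standard error 0.18, unadjusted p = 0.508). IGFBP2 measured 11.90, 11.34 and 11.45 in hypoxia at 7 d, against 10.90, 10.28 and 10.45 in normoxia at 7 d, and 11.69, 10.64 and 11.21 in hypoxia at 24 h, against 10.57, 9.95 and 9.67 in normoxia at 24 h. IGFBP2, which binds insulin-like growth factors, had effects of 1.02 at 7 d and 1.12 at 24 h. It was the only one of 17 measured genes of the insulin-like growth factor system past the thresholds at either time. Over all features 0.761% passed them at 7 d and 0.408% at 24 h.

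HK2, the hexokinase of growing cells, had effects of 0.76 at 7 d and 0.80 at 24 h and differences of 0.07, 0.01 and -0.19 in the 3 lines. PFKFB4 and PFKFB3, which set the level of an activator of phosphofructokinase, had effects of 1.04 at 7 d and 1.26 at 24 h and of 0.64 at 7 d and 1.14 at 24 h. PDK1, a pyruvate dehydrogenase kinase, had effects of 0.87 at 7 d and 1.5 at 24 h. Its difference was negative in all 3 lines (-0.75, -0.36 and -0.78), with a mean of -0.63 (standard error 0.35, unadjusted p = 0.102). Its 24 h effect was the larger one in each line. With the 6 pairs of hypoxic and normoxic arrays as a block the unadjusted p was 0.0174. INSIG2, a brake on cholesterol synthesis, had effects of 1.20 at 7 d and 1.39 at 24 h. The lines disagreed on the sign of its difference, which was -0.80 for H9, 0.63 for HS360 and -0.41 for HS401. Without the 3 dim arrays the difference of INSIG2 was 0.58. Those of HK2, PFKFB4, PFKFB3 and PDK1 were then 0.26, 0.34, -0.02 and -0.40.

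Among the other lasting genes, the transcriptional repressor BHLHE40 had effects of 1.20 at 7 d and 0.94 at 24 h, and the adenylyl cyclase ADCY8 of 1.16 at 7 d and 0.78 at 24 h. Without the 3 dim arrays the difference was 0.74 in BHLHE40 and 0.835 in ADCY8. The synaptic scaffold gene PPFIA4 had effects of 0.93 at 7 d and 0.90 at 24 h, the protease inhibitor A2ML1 of 0.96 at 7 d and 0.76 at 24 h and the metalloprotease ADAMTS20 of 0.78 at 7 d and 1.18 at 24 h. The remaining named genes were the endothelin receptor EDNRB, the glycogen branching enzyme GBE1, the collagen lysyl hydroxylase PLOD2, NDRG1, the dynein chain DYNC2I1, the GABA receptor subunit GABRA2 and the phosphatase PTPRB, with effects between 0.65 and 1.08 at 7 d and between 0.61 and 0.99 at 24 h.

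Promoters of lasting genes carried the core of the hypoxia response element (ACGTG or GCGTG, on either strand) more often than the average promoter. RefSeq (GRCh38.p14) windows of 300 bases, from 250 before to 50 after each start site, were found for 17 of the 20 named lasting genes. A core was present in 23 of their 28 windows (82.1%), against 17012 of all 35116 windows (48.4%). For the appearing genes, of which 56 of 85 named features matched, it was present in 35 of 67 windows (52.2%), and for the fading genes, of which 7 of 14 matched, in 1 of 7 windows (14.3%). Windows of 1 gene can overlap, the motifs are short, and no test was made. The 3 windows printed first show a lasting gene with cores spread over the window (DDIT4), a lasting gene with the palindrome CACGTG, which holds ACGTG on both strands and which its protein is known to bind (BHLHE40), and a gene with a smaller effect at 7 d and a dense cluster of cores (BNIP3). Capitals mark ACGTG and GCGTG on either strand.
DDIT4, chr10:72273674-72273973, plus strand: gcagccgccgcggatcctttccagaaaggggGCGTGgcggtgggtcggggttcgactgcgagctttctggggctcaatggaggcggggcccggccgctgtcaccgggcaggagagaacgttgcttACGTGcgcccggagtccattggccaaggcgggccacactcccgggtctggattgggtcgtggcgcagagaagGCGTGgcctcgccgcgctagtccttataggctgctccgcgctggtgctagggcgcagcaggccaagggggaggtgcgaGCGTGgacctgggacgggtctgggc
BHLHE40, chr3:4979187-4979486, plus strand: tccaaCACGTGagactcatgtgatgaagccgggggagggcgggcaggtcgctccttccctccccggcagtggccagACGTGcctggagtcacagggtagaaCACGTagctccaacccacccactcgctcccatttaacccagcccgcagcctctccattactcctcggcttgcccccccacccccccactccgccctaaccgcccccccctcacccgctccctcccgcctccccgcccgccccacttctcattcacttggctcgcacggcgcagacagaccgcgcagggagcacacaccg
BNIP3, chr10:131981874-131982173, minus strand: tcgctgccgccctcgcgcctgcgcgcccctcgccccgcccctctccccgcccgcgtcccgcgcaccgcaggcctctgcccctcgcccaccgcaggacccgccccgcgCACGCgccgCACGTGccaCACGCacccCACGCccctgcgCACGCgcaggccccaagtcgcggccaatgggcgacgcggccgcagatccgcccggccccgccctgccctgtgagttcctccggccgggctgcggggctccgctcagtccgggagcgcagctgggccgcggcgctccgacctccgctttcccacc

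The fading class was led by NRN1, a neuritin that promotes neurite growth and is a known hypoxia-inducible gene. NRN1 measured 6.01, 6.56 and 6.52 in hypoxia at 7 d, against 5.53, 5.70 and 6.01 in normoxia at 7 d, and 8.11, 6.86 and 9.54 in hypoxia at 24 h, against 5.95, 6.16 and 6.14 in normoxia at 24 h. At 24 h the hypoxic arrays of H9 and HS401 stood far above all other arrays, whereas at 7 d every array lay between 5.53 and 6.56. The effect was 0.62 at 7 d and 2.09 at 24 h, with differences of -1.68, 0.16 and -2.89 and a mean of -1.47 (standard error 0.62, unadjusted p = 0.0387). HS360 thus did not share the smaller effect at 7 d. The mean level of NRN1 (6.59) was below the median of all features, and without the 3 dim arrays, which include the hypoxic arrays of H9 and HS401, the difference was -0.03.

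The other protein-coding fading genes with a higher level in hypoxia at 24 h were NOG, an antagonist of bone morphogenetic proteins (-0.02 at 7 d and 0.64 at 24 h), SDHAF4, an assembly factor of succinate dehydrogenase (-0.19 and 0.74), ZNF660, CT45A5 and PCDHGA8. DENND10 and the neuropeptide receptor NPBWR2 were lower in hypoxia at 24 h. DENND10 measured 8.12, 8.57 and 8.53 in hypoxia at 7 d, against 8.13, 8.59 and 8.52 in normoxia at 7 d, and 7.27, 8.25 and 7.74 in hypoxia at 24 h, against 8.13, 8.57 and 8.70 in normoxia at 24 h. The 24 h deficit of DENND10 was present in all 3 lines and no line differed by more than 0.02 at 7 d, and the difference between the effects was 0.71 (standard error 0.21, unadjusted p = 0.00658). It was 0.32 without the 3 dim arrays.

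BNIP3, a mitophagy receptor, was not settled by the class rule, although its effect was smaller at 7 d in every line. BNIP3 measured 9.53, 11.27 and 11.21 in hypoxia at 7 d, against 9.59, 10.38 and 11.04 in normoxia at 7 d, and 10.90, 10.31 and 11.76 in hypoxia at 24 h, against 9.17, 8.80 and 10.57 in normoxia at 24 h. The effect was 0.33 at 7 d and 1.48 at 24 h, and the difference was -1.14 (standard error 0.54, unadjusted p = 0.0599). In H9 hypoxia and normoxia differed by -0.06 at 7 d and by 1.73 at 24 h. The time difference, which is the level at 7 d minus that at 24 h in cultures of 1 oxygen level, was -0.32 in hypoxia and 0.82 in normoxia. The difference between the effects of BNIP3 was -0.63 without the 3 dim arrays.

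KDM3A, a HIF-inducible histone demethylase, had effects of 0.55 at 7 d and 1.31 at 24 h and a difference of -0.76 (standard error 0.35, unadjusted p = 0.0584), and the hydroxylase EGLN3 had effects of 0.26 at 7 d and 0.66 at 24 h. ARRDC3, an arrestin-domain protein, had effects of 0.57 at 7 d and 0.91 at 24 h. In all 3 genes HS360 had the difference nearest to 0 or above it (-0.10, 0.14 and 0.19). Without the 3 dim arrays the difference was -0.08 in KDM3A, 0 in EGLN3 and 0.36 in ARRDC3.

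As groups, the oxygen-responsive genes had mostly positive effects at both times, with fewer of them past the thresholds at 7 d than at 24 h. Of 34 measured HIF targets outside glycolysis 33 had a positive effect at 7 d and 32 at 24 h, against 61.3% and 40.2% of all features. Past the thresholds and higher in hypoxia were 7 at 7 d and 16 at 24 h, against 0.455% and 0.361% of all features. Their median effects were 0.50 and 0.64, against 0.06 and -0.03 over all features. The difference was positive in 18 of them (52.9%), against 60.8% of all features, and its median was 0.03. Only 1 member (NRN1) had an unadjusted p under 0.05, against 2.72% of all features in either direction. Of 22 genes of glucose uptake and glycolysis 21 had a positive effect at 7 d and 20 at 24 h, with medians of 0.32 and 0.46 and with 5 past the thresholds at 7 d and 9 at 24 h. The difference was positive in 7 and negative in 14, against 38.9% negative over all features, with a median of -0.14 and no member at an unadjusted p under 0.05. LDHA, which makes lactate, had effects of 0.17 at 7 d and 0.63 at 24 h, and PGK1 of 0.59 and 1.02.

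The lines parted at 24 h rather than at 7 d. The median effect of the HIF targets was 0.50, 0.48 and 0.50 at 7 d in H9, HS360 and HS401, and 0.78, 0.175 and 0.78 at 24 h. The median of their differences was accordingly -0.015 for H9, 0.185 for HS360 and -0.315 for HS401. Without the 3 dim arrays, which are the 24 h arrays of H9 in hypoxia and of HS401 in both oxygen levels, the median difference was 0.28 for the HIF targets and 0.11 for glycolysis. The line and the low lower quartile cannot be told apart at 24 h in these values.

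FLRT3, a transmembrane adhesion protein of the early embryo that binds FGF receptors, had the largest difference among the named genes above the median level. FLRT3 measured 6.62, 5.67 and 8.32 in hypoxia at 7 d, against 8.36, 7.80 and 9.91 in normoxia at 7 d, and 7.73, 5.82 and 8.64 in hypoxia at 24 h, against 7.12, 6.30 and 8.36 in normoxia at 24 h. In each line the hypoxic array was lower at 7 d (effects of -1.74, -2.13 and -1.59), while at 24 h the hypoxic arrays were higher in H9 and HS401 and lower in HS360. The difference was -1.96 (standard error 0.32, unadjusted p = 0.000138). It rested mainly on normoxia, since the time difference was -0.53 in hypoxia and 1.43 in normoxia.

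Several other regulators of development had a level in normoxia that was higher at 7 d than at 24 h, with a smaller or no such difference in hypoxia. FST measured 9.05, 8.82 and 9.31 in hypoxia at 7 d, against 10.88, 10.16 and 9.97 in normoxia at 7 d, and 9.73, 8.38 and 9.48 in hypoxia at 24 h, against 9.47, 9.07 and 9.21 in normoxia at 24 h. FST, follistatin, binds and blocks activin. Its effects were -1.28 at 7 d and -0.05 at 24 h, its difference was -1.22 (standard error 0.36, unadjusted p = 0.00664), and its time difference was -0.14 in hypoxia and 1.09 in normoxia. Without the 3 dim arrays the difference was -0.61.

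FRZB, a secreted WNT antagonist, had effects of -1.22 at 7 d and 0.08 at 24 h and a time difference of 0.90 in hypoxia and 2.20 in normoxia. Its difference was -2.49, -1.11 and -0.31 in the 3 lines, with a mean of -1.30, and -0.765 without the 3 dim arrays. The homeobox gene MSX2 had effects of -0.64 at 7 d and 0.30 at 24 h and a difference of -0.94 (standard error 0.27, unadjusted p = 0.00568), and a time difference of 0.03 in hypoxia and 0.97 in normoxia. PAX6, a regulator of neuroectoderm, had effects of -0.84 at 7 d and 0.25 at 24 h and differences of -1.87, -0.60 and -0.81. The secreted kinase PKDCC had effects of -0.60 at 7 d and 0.36 at 24 h and a difference of -0.96 (standard error 0.24, unadjusted p = 0.00284). In FST, FRZB, MSX2, PAX6 and PKDCC the normoxic level was higher at 7 d than at 24 h in each line. The mean levels of PAX6 and MSX2 were below the median of all features.

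In the lists these genes belong to the differences ran both ways. Of 22 mesendoderm and endoderm regulators 14 had a positive difference (60.8% of all features did) and 8 a negative one (38.9%), and 3 (FLRT3, FRZB and RSPO3) had a negative difference at an unadjusted p under 0.05 (1.4% of all features). Of 23 neuroectoderm regulators PAX6 was the only one at that level. Of 28 WNT genes 11 were negative, 3 of them (FRZB, RSPO3 and LEF1) at an unadjusted p under 0.05. RSPO3, which enhances WNT signals, rested on HS401, with differences of -0.71, -0.01 and -2.77, whereas the WNT transcription factor LEF1 had -0.51, -0.58 and -0.89 and a mean of -0.66 (standard error 0.20, unadjusted p = 0.00745).

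In the NODAL, activin and BMP list 16 of 23 had a negative difference, against 38.9% of all features, 3 of them at an unadjusted p under 0.05, against 1.4%. ID1 and ID4, targets of BMP signalling, had differences of -0.55 and -0.47 (unadjusted p = 0.0325 and 0.0398). LEFTY2, an inhibitor of NODAL, ran the other way. LEFTY2 measured 9.51, 9.16 and 9.86 in hypoxia at 7 d, against 8.28, 8.52 and 9.26 in normoxia at 7 d, and 9.05, 10.03 and 9.67 in hypoxia at 24 h, against 9.29, 9.96 and 9.72 in normoxia at 24 h. Its effects were 0.82 at 7 d and -0.07 at 24 h, its difference was 0.90 (standard error 0.35, unadjusted p = 0.03), and its time difference was -0.07 in hypoxia and -0.97 in normoxia. LEFTY1, which is nearly identical to it in sequence, had a difference of 0.25.

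In a second set of genes with a lower effect at 7 d, the hypoxic cultures differed between the times in the mean of the lines. SRSF7 measured 8.72, 9.24 and 8.94 in hypoxia at 7 d, against 9.98, 9.90 and 9.97 in normoxia at 7 d, and 10.06, 9.26 and 9.92 in hypoxia at 24 h, against 9.83, 9.54 and 10.05 in normoxia at 24 h. SRSF7, an SR protein that acts in splicing and mRNA export, was lower in hypoxia at 7 d, with effects of -1.26, -0.66 and -1.03 in the 3 lines, its 3 hypoxic arrays at 7 d lay below all other arrays, and its difference was -0.92 (standard error 0.30, unadjusted p = 0.0128). SRSF3 and SRSF6, of the same family, had differences of -0.80 (standard error 0.31, unadjusted p = 0.028) and -0.59 (standard error 0.23, unadjusted p = 0.0294). In HS360 the time differences of SRSF7, SRSF3 and SRSF6 were -0.02, 0.08 and -0.09 in hypoxia and 0.36, 0.35 and 0.33 in normoxia. Hypoxia thus held the larger time difference of these genes in H9 and HS401 only, whose hypoxic arrays at 24 h were dim. Of 15 SR factors 14 had a negative difference, against 38.9% of all features, 4 of them (SREK1 with the 3 above) at an unadjusted p under 0.05, against 1.4% of all features in that direction. The median effect of the list was -0.15 at 7 d and 0.00 at 24 h. Its median difference was -0.33, -0.23 and -0.06 in the 3 lines, against 0.31, 0 and -0.05 over all features. In HS401 the list thus lay near the median of all features.

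DNAJA1 measured 7.80, 8.56 and 8.09 in hypoxia at 7 d, against 8.94, 9.41 and 8.78 in normoxia at 7 d, and 9.35, 8.91 and 9.69 in hypoxia at 24 h, against 9.05, 9.0 and 9.36 in normoxia at 24 h. DNAJA1, a co-chaperone of HSP70, had a time difference of -1.17 in hypoxia and -0.09 in normoxia, and its difference was -1.07 (standard error 0.36, unadjusted p = 0.014). In HS360 its time difference was -0.35 in hypoxia and 0.41 in normoxia. DNAJB1 had a difference of -0.68 (standard error 0.30, unadjusted p = 0.0446). Among 22 heat shock proteins 15 differences were negative (38.9% of all features), 2 at an unadjusted p under 0.05 (1.4%), and HSPB8 was positive at 0.57 (standard error 0.20, unadjusted p = 0.0161). Without the 3 dim arrays the difference of DNAJA1 was -0.58 and that of SRSF7 -0.53.

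NCOA5, a coregulator of nuclear receptors, had a time difference of -1.41 in hypoxia and -0.36 in normoxia and had differences of -0.80, -0.90 and -1.46. SLC5A3, a myo-inositol transporter, had a time difference of -0.85 in hypoxia and 0.04 in normoxia, and its effect was -0.57 at 7 d and 0.32 at 24 h. TADA2A, an adaptor of histone acetyltransferase complexes, had a time difference of -0.69 in hypoxia and -0.04 in normoxia. SOAT1, which esterifies cholesterol, had a time difference of -0.61 in hypoxia and 0.51 in normoxia, with a difference between the effects of -1.12 (standard error 0.31, unadjusted p = 0.00514). NKAIN4, a membrane protein, had a time difference of -0.16 in hypoxia and 0.52 in normoxia.

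NSDHL, an enzyme of cholesterol synthesis, had effects of opposite sign at the 2 times. NSDHL measured 8.36, 8.58 and 8.40 in hypoxia at 7 d, against 8.85, 9.07 and 8.73 in normoxia at 7 d, and 9.38, 9.08 and 9.42 in hypoxia at 24 h, against 8.82, 8.96 and 8.93 in normoxia at 24 h. Hypoxia minus normoxia was negative in all 3 lines at 7 d and positive in all 3 at 24 h, with a mean of -0.44 at 7 d and 0.39 at 24 h and a difference of -0.83 (standard error 0.21, unadjusted p = 0.00268). Of 20 genes of cholesterol synthesis and uptake 14 had a negative difference, against 38.9% of all features, and only NSDHL and TM7SF2 (-0.54, unadjusted p = 0.0102) reached an unadjusted p under 0.05, against 1.4%. The median difference of the list was -0.15, and 0.04 without the 3 dim arrays.

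**Figure D3:**
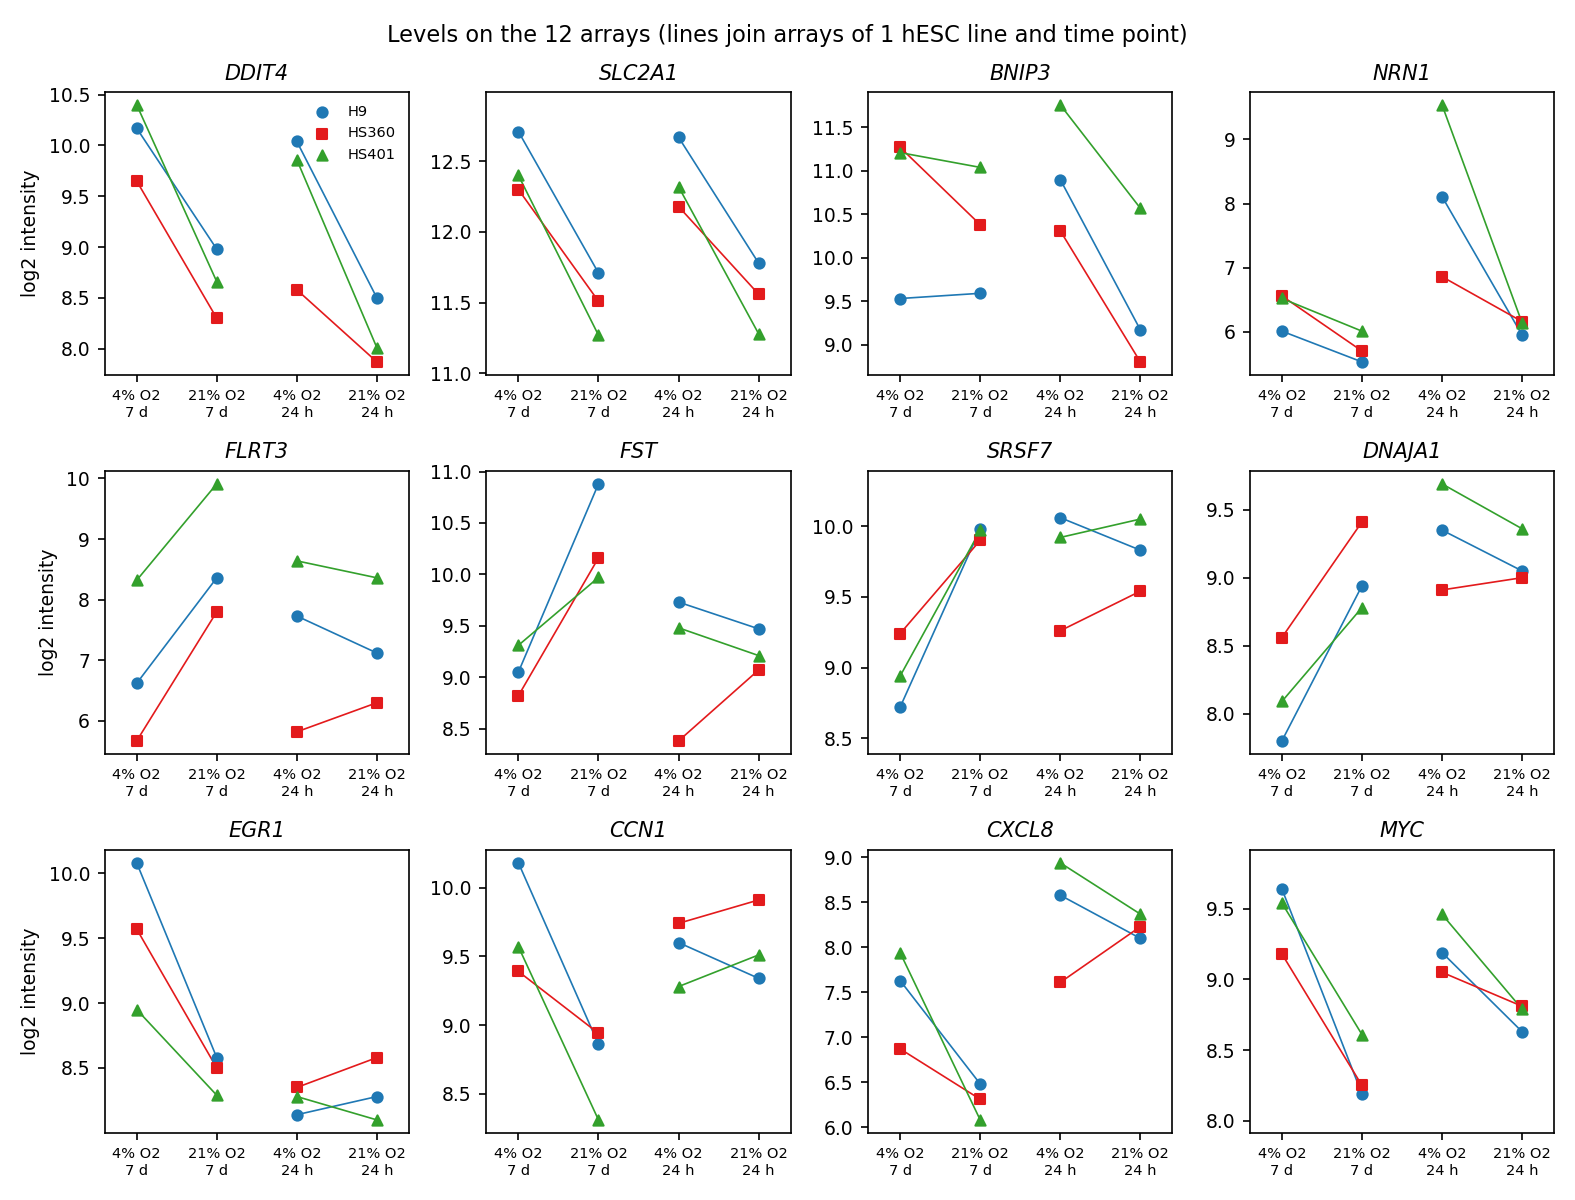
Log2 intensity of 12 genes on the 12 arrays; in each panel the groups run from hypoxia (4% O2) at 7 d to normoxia (21% O2) at 24 h, symbols mark hESC lines, and lines join the arrays of 1 line and time point. DDIT4 and SLC2A1 had similar slopes at both times. In the mean of the lines FLRT3 and FST differed between the times mainly in normoxia, and SRSF7, DNAJA1 and EGR1 mainly in hypoxia. SRSF7 and DNAJA1 differed more in normoxia in HS360.

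Among the named genes at or above the median level, the immediate early gene EGR1 had the highest difference. Growth factors and stress switch on genes of this kind within minutes. EGR1 measured 10.08, 9.57 and 8.95 in hypoxia at 7 d, against 8.58, 8.50 and 8.29 in normoxia at 7 d, and 8.14, 8.35 and 8.28 in hypoxia at 24 h, against 8.28, 8.58 and 8.10 in normoxia at 24 h. EGR1, a zinc finger transcription factor, was higher in each hypoxic culture than in its normoxic partner at 7 d and lower in 2 of 3 at 24 h. Its effects were 1.08 at 7 d and -0.06 at 24 h and its difference was 1.14 (standard error 0.30, unadjusted p = 0.00338), and its time difference was 1.28 in hypoxia and 0.14 in normoxia.

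The EGR1 window is shown because EGR1 had the highest difference of the named genes at or above the median level and because serum response factor is known to act on this promoter through CArG boxes, which are the capitals. It holds 2 of them, while 454 of 35116 RefSeq windows (1.29%) hold at least 1. Among the windows of the immediate early genes 1 of 17 did, which is that of EGR1 itself. Windows were found for 15 of the 20 genes, and no bases outside the windows were searched. The count therefore cannot tell whether the genes of the list share the motif.
EGR1, chr5:138465229-138465528, plus strand: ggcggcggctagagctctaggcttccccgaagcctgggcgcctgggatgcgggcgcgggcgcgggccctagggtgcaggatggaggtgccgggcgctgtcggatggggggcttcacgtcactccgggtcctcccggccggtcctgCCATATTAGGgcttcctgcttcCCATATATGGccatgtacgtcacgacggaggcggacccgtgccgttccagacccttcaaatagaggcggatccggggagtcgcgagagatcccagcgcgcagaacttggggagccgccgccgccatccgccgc

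Of 20 immediate early genes 19 had a positive difference, against 60.8% of all features, 6 of them (EGR1, CCN1, CCN2, KLF6, FOS and JUND) at an unadjusted p under 0.05, against 1.32% of all features in that direction. The median effect was 0.38 at 7 d and -0.05 at 24 h, and the median difference was 0.89 for H9, 0.13 for HS360 and 0.43 for HS401. DUSP1, a phosphatase of MAP kinases, had effects of 0.84 at 7 d and 0.05 at 24 h and a time difference of 0.66 in hypoxia and -0.12 in normoxia. The ERK feedback gene PHLDA1 had effects of 0.87 at 7 d and 0.38 at 24 h. Of 17 genes of that list 2 had a positive difference at an unadjusted p under 0.05, against the same 1.32%.

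In CCN1 and CCN2, matricellular proteins induced by YAP and by serum, the normoxic cultures differed more between the times. CCN1 measured 10.18, 9.39 and 9.57 in hypoxia at 7 d, against 8.86, 8.94 and 8.31 in normoxia at 7 d, and 9.60, 9.74 and 9.28 in hypoxia at 24 h, against 9.34, 9.91 and 9.51 in normoxia at 24 h. The difference of CCN1 was 1.06 (standard error 0.32, unadjusted p = 0.00762) and that of CCN2 0.91 (standard error 0.27, unadjusted p = 0.00763), and the time difference was 0.17 in hypoxia and -0.88 in normoxia for CCN1 and 0.21 in hypoxia and -0.70 in normoxia for CCN2. Of 13 YAP pathway genes these 2 reached an unadjusted p under 0.05, against 1.32% of all features in that direction.

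CCN2 also stands among the fibroblast markers, which differed in the same direction. Of 30 markers 28 had a positive difference, against 60.8% of all features, with a median of 0.42 against 0.08, and 5 (CCN2, COL1A1, COL3A1, PDGFRB and COL6A2) had an unadjusted p under 0.05, against 1.32% in that direction. COL1A1 measured 11.95, 11.39 and 11.92 in hypoxia at 7 d, against 11.08, 11.32 and 10.98 in normoxia at 7 d, and 12.15, 12.40 and 12.31 in hypoxia at 24 h, against 12.22, 12.47 and 12.49 in normoxia at 24 h. The level at 7 d was below that at 24 h in 28 of 30 markers in hypoxia and in all 30 in normoxia, with median time differences of -0.75 in hypoxia and -1.24 in normoxia. The median difference was 0.555 for H9, 0.005 for HS360 and 0.805 for HS401.

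Several cytokines, like these markers, had lower mean levels at 7 d than at 24 h in either oxygen level, but the lines ranked otherwise. CXCL8 measured 7.63, 6.87 and 7.94 in hypoxia at 7 d, against 6.48, 6.31 and 6.08 in normoxia at 7 d, and 8.58, 7.61 and 8.94 in hypoxia at 24 h, against 8.10, 8.23 and 8.37 in normoxia at 24 h. CXCL8, a chemokine, had a time difference of -0.90 in hypoxia and -1.94 in normoxia, and its difference was 1.05 (standard error 0.39, unadjusted p = 0.0223). Among 18 chemokines and inflammatory cytokines 16 had a positive difference, against 60.8% of all features, 5 of them (CXCL8, IL1B, IL6, LIF and IL11) at an unadjusted p under 0.05, against 1.32%. IL1B and IL6 had differences of 0.93 (standard error 0.32, unadjusted p = 0.0153) and 0.91 (standard error 0.36, unadjusted p = 0.0311). In HS360 the hypoxia effects of CXCL8, IL1B and IL6 were 0.56, 0.30 and 0.50 at 7 d and -0.62, -0.87 and -0.90 at 24 h. Their differences in that line were 1.18, 1.17 and 1.40, whereas the median of the fibroblast markers was 0.005 there. The time difference of IL6 in HS360 hypoxia was 0.06.

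MYC, the growth-promoting transcription factor, had an effect at both times that was larger at 7 d. MYC measured 9.64, 9.18 and 9.54 in hypoxia at 7 d, against 8.19, 8.25 and 8.61 in normoxia at 7 d, and 9.19, 9.05 and 9.46 in hypoxia at 24 h, against 8.63, 8.81 and 8.79 in normoxia at 24 h. At 7 d its hypoxic and normoxic arrays did not overlap, nor did they at 24 h, and the effects were 1.10 at 7 d and 0.49 at 24 h. The difference was positive in all 3 lines (0.89, 0.69 and 0.26) with a mean of 0.61 (standard error 0.21, unadjusted p = 0.0158). MGA, a competitor of MYC for its partner MAX, had a difference of -0.73 (standard error 0.25, unadjusted p = 0.0159). Of the 13 genes of the MYC network MYC and MGA reached an unadjusted p under 0.05, against 2.72% of all features in either direction.

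Metallothioneins, which bind zinc and copper, had a median effect of 0.66 at 7 d and 0.19 at 24 h. MT2A measured 11.20, 11.49 and 11.11 in hypoxia at 7 d, against 10.08, 9.65 and 10.97 in normoxia at 7 d, and 10.97, 11.46 and 11.35 in hypoxia at 24 h, against 10.84, 11.79 and 11.09 in normoxia at 24 h. The difference of MT2A was 1.01 (standard error 0.44, unadjusted p = 0.046), with 0.99 in H9, 2.17 in HS360 and -0.12 in HS401, and that of MT1E was 0.97 (standard error 0.39, unadjusted p = 0.0348). Of 10 metallothioneins 9 had a positive difference (60.8% of all features), 2 of them at an unadjusted p under 0.05 (1.32%), and the median difference was 0.82 for H9, 0.815 for HS360 and -0.16 for HS401. The genes of this family are close in sequence and their probes may not tell them apart.

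Of the other genes with a higher effect at 7 d, HEY2, a target of NOTCH, had effects of 0.64 at 7 d and -0.12 at 24 h and a difference of 0.76 (standard error 0.20, unadjusted p = 0.00322). It was the only one of 18 NOTCH genes at an unadjusted p under 0.05, against 1.32% of all features in that direction. NPTX1, a neuronal pentraxin, had a time difference of 0.94 in hypoxia and 0.12 in normoxia, and its difference was 0.90, 0.87 and 0.68 in the 3 lines. SHISA9, KLF6 and TBC1D2 had differences of 0.92 (standard error 0.23, unadjusted p = 0.00301), 0.78 (standard error 0.24, unadjusted p = 0.0096) and 0.72 (standard error 0.21, unadjusted p = 0.00612). CPT1A, which carries fatty acids into mitochondria, was lower in hypoxia at 24 h in all 3 lines (effects of -0.55, -0.39 and -0.52) and had effects of 0.21 at 7 d and -0.49 at 24 h. CDKN1A, an inhibitor of cyclin-dependent kinases, had effects of 0.70 at 7 d and -0.26 at 24 h. CCNE2, a cyclin of S phase entry, had effects of -0.37 at 7 d and 0.46 at 24 h, and AURKB of 0.29 and -0.08. Of 31 cell cycle genes 11 had a positive and 20 a negative difference, against 60.8% and 38.9% of all features, with a median of -0.03. At an unadjusted p under 0.05 were 2 higher and 1 lower, against 1.32% and 1.4%.

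**Figure D4:**
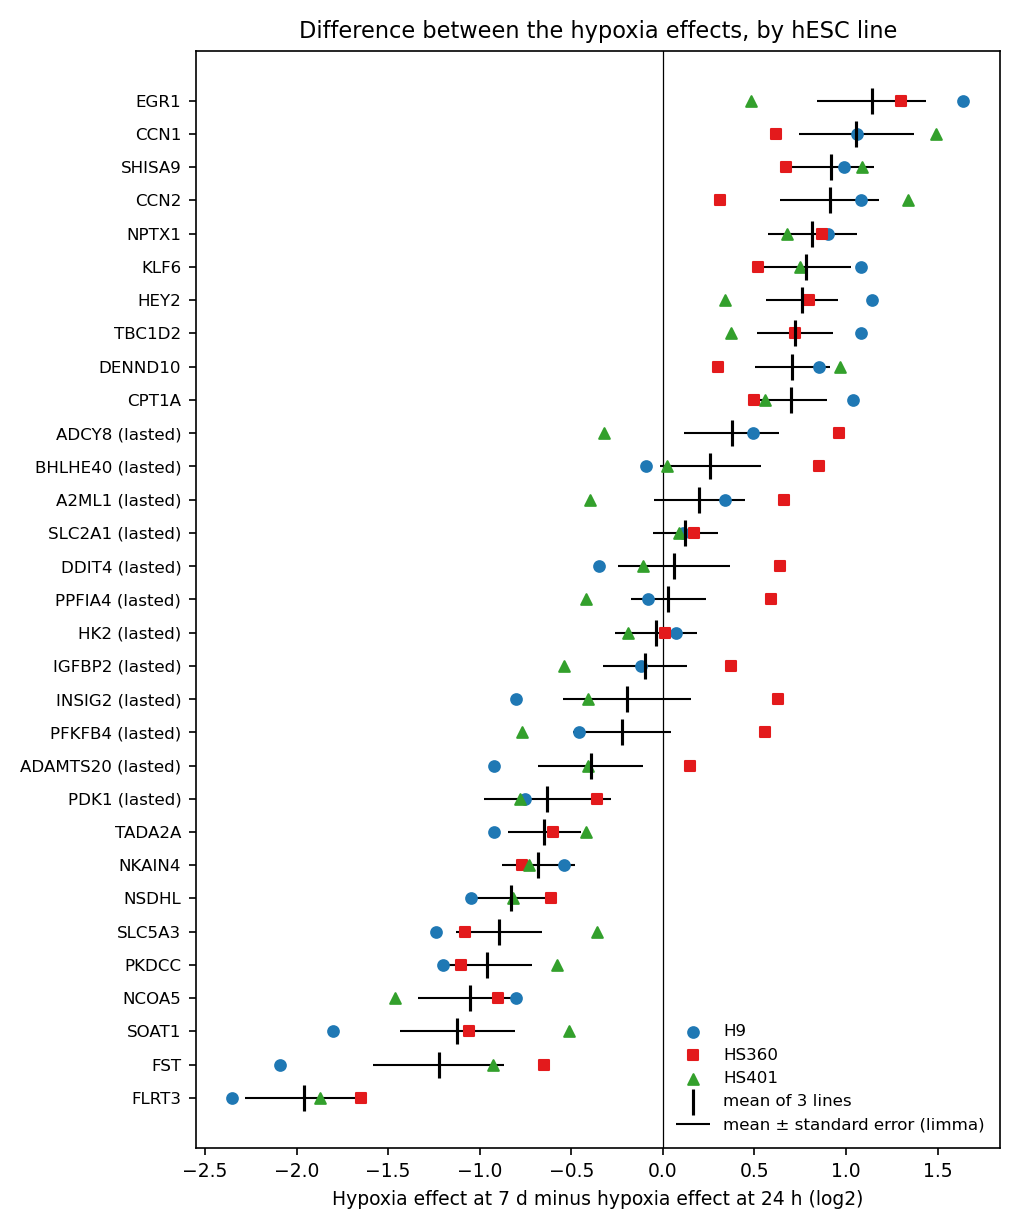
Hypoxia effect at 7 d minus that at 24 h (log2) for the genes with the largest differences above the median level and for the leading lasting genes; symbols mark the 3 hESC lines, the upright stroke their mean, and the horizontal bar 1 standard error from limma. The genes at either end were chosen for 1 sign in all 3 lines, and the lasting genes were not. HS360 lies to the right of H9 and HS401 in DDIT4, INSIG2, PFKFB4 and BHLHE40.

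Pluripotency genes showed no common difference. Of 29 measured members 18 had a positive and 11 a negative difference, against 60.8% and 38.9% of all features. Their median was 0.15, against 0.08. MYC and LEFTY2 had a positive difference at an unadjusted p under 0.05, against 1.32% of all features in that direction. SOX2 had effects of -0.10 at 7 d and 0.19 at 24 h, and LIN28A of 0.18 and -0.06. POU5F1, which has several processed pseudogenes, had effects of 0.29 and -0.23 with a difference of 0.52 (unadjusted p = 0.32). Among 13 genes of oxygen sensing none reached an unadjusted p under 0.05, against 2.72% of all features. HIF1A had effects of -0.31 at 7 d and -0.39 at 24 h.

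**Figure D5:**
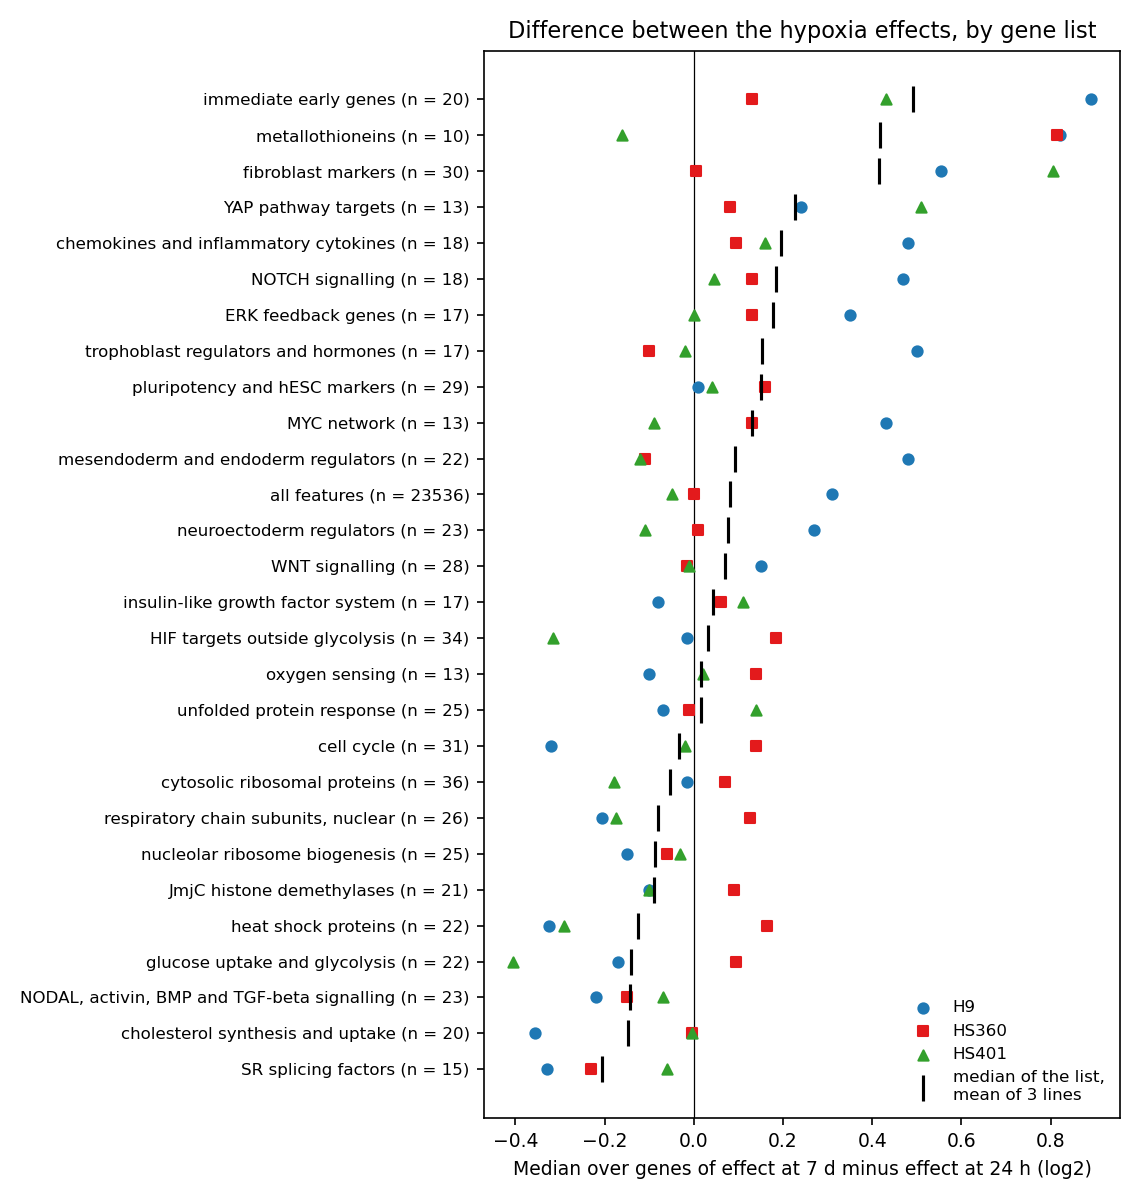
Median over the genes of each list of the hypoxia effect at 7 d minus that at 24 h (log2), for each of 3 hESC lines (symbols) and for the mean of the lines (upright stroke); n is the number of measured genes. Immediate early genes, metallothioneins and fibroblast markers had the highest medians (0.49, 0.42 and 0.42) and SR splicing factors the lowest (-0.21), against 0.08 over all features, and the 3 lines were spread widely in most lists.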

How the data were processed

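Total RNA from H9, HS360 and HS401 cells was hybridised to Affymetrix Human Exon arrays, each line giving 1 array at each oxygen level and time. The deposited intensity values were made by the authors with RMA in Chipster on probes re-annotated by a custom CDF to Entrez genes, and no version of these tools is given in the sources used here. Their log2 values, which lie on steps of 0.01, were analysed. Of 23536 features 20727 had a symbol, updated through the Entrez ID, and 2809 had none. RMA quantile-normalizes arrays, so a shift shared by most genes can be lost, and low intensities carry much probe background. The gene-level values still differed between arrays, with lower quartiles of 5.64 to 6.17 and a median difference over all features of 0.31 in H9. Intensities of an array hold no read depth, so no counting interval was given.

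The 12 arrays of 7 d and 24 h were fitted in limma 3.58.1 (R 4.3.3) with 4 group means and a fixed block for the line (6 residual and 3.82 prior degrees of freedom). Tests were two-sided, with Benjamini-Hochberg adjustment over all features. The line pairs the samples, since cultures of 1 line stand in all groups, and the deviations of the paired oxygen levels correlated at -0.00534 to 0.776 across features, above 0.1 in 5 of 6 pairs. The study's methods name limma, a p of 0.01 and a fold of 1.5, and no block.

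Named genes were up to 12 in each direction with the largest difference past the thresholds, of 1 sign in all lines and at or above the median level, up to 12 lasting genes, 25 genes that the study's text names, and up to 3 members of each of 27 gene lists. Members and lists were chosen with earlier results of these data known. Genes without a named feature were not analysed here. Motifs were searched in RefSeq promoter windows. The scripts were tested on simulated data. The 6 arrays of 2 h were used only in the closing section.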

Additional observations from a re-analysis of the deposited data

Results flagged for a closer look

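The 2 h arrays are outside the comparison of 7 d with 24 h. In them 5 of the 20 named lasting genes already had levels in hypoxia above those in normoxia with no overlap between the groups, as 1.08% of all features did in that direction. The mean of hypoxia minus normoxia at 2 h was 1.79 in DDIT4, 1.13 in BHLHE40, 1.07 in PFKFB3, 0.84 in PFKFB4 and 0.83 in HK2 on the log2 scale. The effect was smallest in HS360 in all 5 genes (0.65 in DDIT4 and 0.01 in PFKFB4). Of the 20 genes 11 had a positive value in all 3 lines at 2 h, while ADCY8, GBE1, GABRA2 and IGFBP2 had means of 0.03 to 0.15. These values were not tested.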

How the results depend on the processing

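No feature passed an adjusted p under 0.05 for the difference between the effects under any of 15 settings by limma, and the number at an unadjusted p under 0.05 ranged from 205 to 2261. All 90 features past the study's thresholds kept their sign in the settings that tested them. Where 1 line was left out this was fixed in advance, since the 90 had 1 sign in all 3 lines. Settings that change only the error model leave the sign as it was. The calls depended on the lines and on 3 arrays. The 90 became 32 without a replicate block, 240 with each of 6 hypoxia and normoxia pairs as a replicate block, 169 on the within-line values alone, 32 among features at or above the median level, 176 with the lower quartile as a covariate and 164 without the 3 dim arrays. Leaving out 1 line gave 32 (without H9) to 428 (without HS360), and 56 without HS401. In the same order of lines 12, 47 and 22 of the 90 remained past the thresholds. Without the 3 dim arrays hypoxia at 24 h holds the HS360 array alone, which is assumed to vary like the other groups, so the counts under that setting carry this limit.

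The 179 features of 7 d became 99 without a block, 316 with the pairs, 408 on within-line values, 388 without the 3 dim arrays, and 75 (without H9) to 438 (without HS360). The 96 of 24 h became 62 without a block, 52 above the median level, 357 without the 3 dim arrays, 34 without H9, 283 without HS360 and 48 without HS401. The 22 lasting features became 13 without a block and 34 with the covariate, and 6 (without HS401) to 34 (without HS360), with 9 without H9. Of them 6 remained without the 3 dim arrays and 20 without HS360. The 19 fading features became 11 without a block, 49 with the pairs, 43 on within-line values, 33 after a second quantile normalization, 5 above the median level, 45 with the covariate, 208 without the 3 dim arrays, and 11 (without H9) to 189 (without HS360). The 100 appearing features became 55 without a block, 220 with the pairs, 231 on within-line values, and 44 (without H9) to 315 (without HS360). With the pairs as a block, BNIP3 passed the thresholds (unadjusted p = 0.0025), while its difference shrank to -0.63 without the 3 dim arrays. The cause of these differences was not tested.

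Of the 19 genes named for the largest differences none was past the thresholds in all 15 settings, and FLRT3 was past them in 13, with values of -2.11 to -1.32. The median difference over all features was 0.08, 0.01 after centring and -0.02 without the 3 dim arrays. The median difference of glycolysis ranged from -0.3 to 0.108 and that of the HIF targets from -0.147 to 0.275, so neither kept its direction.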

Other observations

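The box C/D snoRNAs of the SNORD116 cluster, an imprinted locus expressed from the paternal chromosome, had a lower hypoxia effect at 7 d than at 24 h in all 6 measured copies, with a median difference of -1.11. In SNORD116-11 the effect was -0.83 at 7 d and 0.77 at 24 h, with differences of -2.03, -1.53 and -1.23 in H9, HS360 and HS401 (unadjusted p = 0.000249 by limma), and in SNORD116-28 it was -1.12 and 0.34, with differences of -1.29, -1.32 and -1.78. SNORD116-14, the copy with the highest level, had effects of -0.23 and 0.07 and differences of -1.09, -0.02 and 0.21. The median over the copies was -2.01 for H9, -0.62 for HS360 and -0.72 for HS401. The copies resemble each other in sequence and are not independent features, and this cluster was chosen after its values were seen.

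Ribosome and respiratory chain genes had small median differences. Of 36 cytosolic ribosomal proteins none reached an unadjusted p under 0.05, against 2.72% of all features, and RPS12 had the largest difference (-0.61, unadjusted p = 0.114). Their median difference was -0.05, with 22 negative values, against 38.9% of all features. Of 26 nuclear genes of the respiratory chain none reached that p either, with a median of -0.08 and 16 negative values, against the same 38.9%. In the unfolded protein response ATF4 was the only one of 25 genes at an unadjusted p under 0.05, against 1.32% of all features in that direction. ATF4 had effects of 0.35 at 7 d and -0.06 at 24 h and a difference that was positive in all 3 lines (0.42, 0.26 and 0.55).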
